A study of Mus musculus with 8 samples.

Results

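Hepatokines are proteins that the liver releases into the blood, and the 9 genes described here encode those best known for following fasting and feeding: Fgf21, Gdf15, Angptl4, Angptl8, Inhbe, Fst, Ahsg, Fetub and Lect2. They were chosen by gene symbol, 1 probe set per gene, and 8 of the 9 were measured, out of 19938 genes measured in all; Gdf15 was not analysed here. Each of the 8 had a single probe set, named in the platform annotation by that gene alone. RNA came from the livers of adult male mice after a 16 h fast and 3 h of refeeding, a state in which insulin is high. There were 4 control mice, labelled wild type, and 4 mice labelled Rictor floxed or RKO, in which albumin-Cre recombines a floxed Rictor allele. Rictor is the defining subunit of mTOR complex 2, which phosphorylates Akt downstream of the insulin receptor. Albumin-Cre acts mainly in hepatocytes, and which other liver cells keep the gene was not examined here. The labels used here do not say whether controls carried Cre or the floxed allele, or which strain was used. The question the design poses is how refed liver transcripts depend on hepatic mTOR complex 2.

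In the fed liver insulin inactivates FoxO1 through Akt and activates SREBP-1c, while fasting engages glucagon, PPARα and CREB3L3. Of the hepatokines, Fgf21 and Angptl4 are PPARα targets of the fasted liver, follistatin (Fst) is raised when insulin is low relative to glucagon, and Angptl8 is among the transcripts that feeding and insulin raise most. Fetuin-A (Ahsg), fetuin-B (Fetub), LECT2 and activin E (Inhbe) are liver products that have been linked to overnutrition and insulin resistance.

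The start-site regions of these genes are shown first because 3 of them share a sequence. It had the most matches of the motifs searched, and this order was set after the matches were seen. It is an element of ATF4, a known regulator among these hepatokines, so motif and genes were not picked independently. RefSeq windows on GRCm38.p6, from 250 bases before to 50 after the transcription start, were given for 7 of the 9 genes, in 9 windows. Those of Angptl4 and Fst were not used here. The letters TGATGNAA, the core of the element bound by ATF4 with a C/EBP partner, occurred on either strand in 3 of the 9 windows, those of Fgf21, Angptl8 and Inhbe, against 3.97% of all 32851 windows. In all 3 the eight-letter match was TGATGCAA, which 0.895% of windows hold. Those letters were read from the 3 matches themselves, so only the share for TGATGNAA was set in advance. It began 139 bases before the start in Fgf21 (chr7:45615491-45615740, minus strand), 130 in Angptl8 (chr9:21835260-21835509, plus strand) and 181 in Inhbe (chr10:127351849-127352098, minus strand). In Fgf21 and Inhbe the match lies on the opposite strand and reads TTGCATCA. The 250 bases before each start follow, 5′ to 3′ on the gene's strand, with the match in capitals.
Fgf21: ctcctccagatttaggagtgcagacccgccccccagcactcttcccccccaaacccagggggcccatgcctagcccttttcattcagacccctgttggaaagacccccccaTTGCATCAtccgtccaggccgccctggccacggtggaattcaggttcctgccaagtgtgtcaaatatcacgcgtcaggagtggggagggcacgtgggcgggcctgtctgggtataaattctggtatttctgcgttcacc
Angptl8: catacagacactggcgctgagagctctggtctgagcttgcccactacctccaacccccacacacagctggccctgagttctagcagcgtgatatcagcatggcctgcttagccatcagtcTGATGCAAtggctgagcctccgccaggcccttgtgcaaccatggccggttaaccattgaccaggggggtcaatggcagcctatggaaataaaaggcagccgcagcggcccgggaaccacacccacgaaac
Inhbe: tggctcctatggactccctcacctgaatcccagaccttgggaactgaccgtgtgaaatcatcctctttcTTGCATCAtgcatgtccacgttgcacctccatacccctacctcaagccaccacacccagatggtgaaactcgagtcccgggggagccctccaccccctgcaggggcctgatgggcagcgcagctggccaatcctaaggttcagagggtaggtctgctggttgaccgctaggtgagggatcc
The other motifs searched on both strands occurred in fewer of these windows or in none. The FoxO letters GTAAACA occurred in 1 of the 9 windows, the second of Fetub, against 3.65% of all windows. The PPAR repeat, AGGTCA written again after 1 base (0.0396% of all windows), the CRE letters TGACGTCA (1.79%) and the sterol element TCACNCCAC (1.24%) occurred in none of the 9. A match describes letters only, and the windows say nothing about sequence farther from the start.

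Each mouse liver was hybridised to 1 Affymetrix Mouse Gene 1.0 ST array. Values are RMA expression on the log2 scale, and differences are knockout-labelled minus control with their moderated standard error (SE). Over all probe sets the median of an array was 6.90 to 7.03. The Rictor probe set read 9.40 ± 0.19 (SD, n = 4) across controls and 9.45 ± 0.22 (SD, n = 4) across knockout-labelled mice, so it did not separate the labels. Controls read 9.23 to 9.64, knockout-labelled array 1 read 9.15, and knockout-labelled arrays 2 to 4 read 9.47 to 9.68. A whole-transcript probe set can read exons outside the deleted part, but this was not tested here. The groups are therefore named by label. In both groups the array numbered 1 differed from the other 3 in part of the genes. This is plain in Igfbp1, which insulin represses through FoxO1. Igfbp1 read 10.04, 7.40, 7.30 and 7.29 on controls 1 to 4 and 7.76, 10.10, 10.10 and 9.65 on knockout-labelled arrays 1 to 4. Control 1 thus lay among knockout-labelled arrays 2 to 4, and knockout-labelled array 1 near controls 2 to 4. Results below are given with all arrays and, where it matters, without both arrays numbered 1. That second fit leaves out arrays chosen with their values known, so its p-values are not a test. The same holds for fits that leave out only 1 of these arrays, and array weights are estimated from the same values.

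With all 8 arrays at equal weight, 4 hepatokine transcripts were higher on average in the knockout-labelled group (Angptl4, Fst, Fgf21 and Ahsg) and 4 were lower (Angptl8, Lect2, Inhbe and Fetub). The differences ran from 0.77 for Angptl4 to -0.54 for Angptl8. None of the 8 passed limma's test after Benjamini-Hochberg adjustment at 0.05, nor did any gene (0 of 19938, 0%). Without adjustment 2062 genes (10.3%) had a limma p under 0.05, 3.82% of all genes higher and 6.53% lower. Of the hepatokines, 3 were under it as higher (Angptl4, Fgf21 and Fst) and 1 as lower (Lect2). The plain two-sample test likewise gave 0 calls, with 1736 under 0.05 without adjustment. The groups overlapped in all 8, as they did in all but 4.42% of all genes. The median difference of the 8 was -0.0027, and of all genes -0.02.

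**Figure D1:**
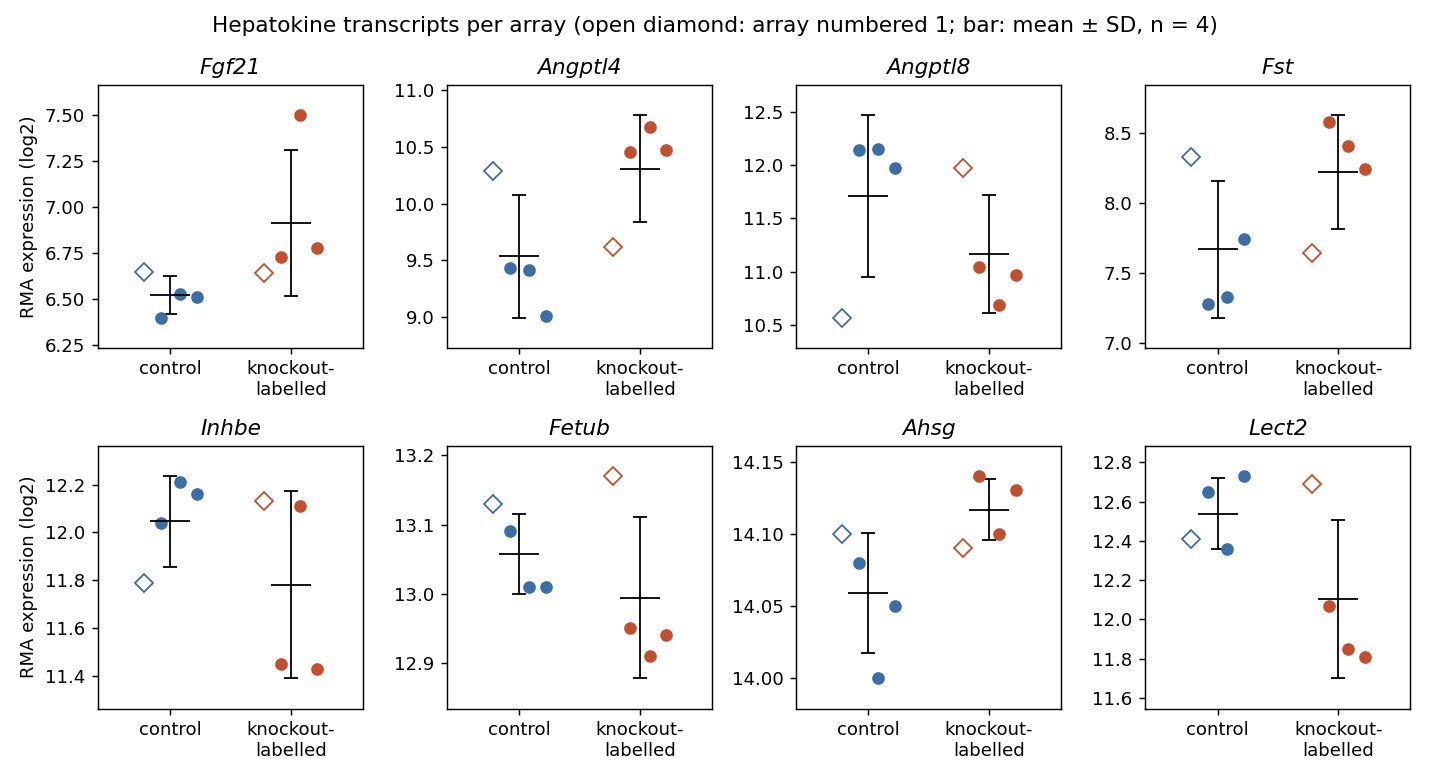
RMA expression on the log2 scale (vertical axis, not starting at 0 and scaled per gene) of the 8 measured hepatokine transcripts on 4 control and 4 knockout-labelled arrays. Points are arrays, open diamonds are the arrays numbered 1, and bars are the mean ± SD. In Angptl4, Angptl8, Fst and Inhbe both diamonds lie nearer to the mean of the other group's remaining arrays.

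The lipase regulators Angptl4 and Angptl8 held the highest and the lowest difference of the 8; in size Fst (0.55) lay just above Angptl8 with all arrays. ANGPTL4 inhibits lipoprotein lipase, mainly in fasted adipose tissue, whereas ANGPTL8 takes part in directing fat to adipose tissue after a meal. Angptl4 read 10.29, 9.43, 9.42 and 9.01 on controls 1 to 4 and 9.62, 10.46, 10.68 and 10.47 on knockout-labelled arrays 1 to 4. Control 1 lay far above the other controls, and knockout-labelled array 1 lay between the groups' other arrays, nearer to controls. The difference was 0.77 (SE 0.26), or 1.71-fold, with a 95% interval from 0.20 to 1.35 (limma adjusted p = 0.304; exact two-sided permutation p = 0.0571, where 0.0286 is the smallest possible). Limma's array weights gave 0.95 (limma adjusted p = 0.0340). Leaving out knockout-labelled array 1 gave 1.00 (limma adjusted p = 0.0344), and leaving out control 1 gave 1.02 (limma adjusted p = 0.0507). Controls 2 to 4 lay from 9.01 to 9.43 and knockout-labelled arrays 2 to 4 from 10.46 to 10.68, a difference of 1.25 (SE 0.13).

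Angptl8 read 10.57, 12.14, 12.15 and 11.97 on controls 1 to 4 and 11.97, 11.04, 10.69 and 10.97 on knockout-labelled arrays 1 to 4. The lowest of all 8 values belonged to control 1, and knockout-labelled array 1 matched control 4. The difference was -0.54 (SE 0.34), or 1.46-fold lower, with a 95% interval from -1.28 to 0.20 (limma adjusted p = 0.599; exact permutation p = 0.371). No alternative with either array numbered 1 in the fit called it. The difference was -0.92 without control 1 (limma adjusted p = 0.0978) and -0.81 without knockout-labelled array 1 (limma adjusted p = 0.188). Without both it was -1.19 (SE 0.10), with controls 2 to 4 from 11.97 to 12.15 and knockout-labelled arrays 2 to 4 from 10.69 to 11.04. Angptl8 lies within the span of Dock6, a guanine nucleotide exchange factor gene, which read -0.37 (SE 0.10; limma adjusted p = 0.195), lower on every knockout-labelled array than on any control. Control 1 read 10.00 for Dock6 and knockout-labelled array 1 read 9.77, so that knockout-labelled array 1, high in Angptl8, was the lowest of the 8 in Dock6.

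Of the 10 measured genes of the lipoprotein lipase axis, 0 passed after adjustment, 1 was under 0.05 without it (higher), and the median difference was 0.01. The 2 with the smallest p were Apoa5, an activator of lipase-mediated triglyceride clearance (0.21, SE 0.08), and Cidec, a lipid droplet protein (0.95, SE 0.48). The other controls read 8.05 to 9.09 for Cidec and control 1 read 10.39, whereas the other knockout-labelled arrays read 9.91 to 11.35 and array 1 of that group 9.13. In Cidec, as in Angptl4, the arrays numbered 1 lay nearer to the other group.

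Fgf21, the hormone that signals through FGF receptors with the co-receptor β-klotho, had a higher mean that rested largely on 1 array. It read 6.65, 6.40, 6.53 and 6.51 on controls 1 to 4 and 6.64, 6.73, 7.50 and 6.78 on knockout-labelled arrays 1 to 4. Knockout-labelled array 3 stood far above the rest, and knockout-labelled array 1 lay just below control 1, so that the groups overlapped narrowly. The difference was 0.39 (SE 0.16) with a 95% interval from 0.05 to 0.74 (limma adjusted p = 0.385; exact permutation p = 0.0571). Leaving out knockout-labelled array 3 gave 0.20 (limma adjusted p = 0.719), and leaving out both arrays numbered 1 gave 0.53 (limma adjusted p = 0.0800). On 7 of the 8 arrays the Fgf21 value lay below the array's median, a range in which RMA compresses differences.

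Among 8 measured receptors and co-receptors of FGF21, related FGFs and GDF15, 0 passed after adjustment and 0 were under 0.05 without it, with 7 lower and a median of -0.06. Over all genes 43.1% had a higher mean. Klb, which encodes β-klotho, differed by -0.06 (SE 0.08) and Fgfr4, the main hepatocyte FGF receptor, by -0.05 (SE 0.12). The 2 with the smallest p were Kl (-0.17, SE 0.08) and Fgfr1 (-0.19, SE 0.11).

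In the activin axis the ligand gene Inhbe had a lower mean and Fst, an activin antagonist gene, a higher one. Inhbe encodes the βE subunit of activin E, a hepatocyte product that restrains lipolysis in fat. Follistatin binds and neutralises activins, but whether it acts on activin E was not examined here. Fst read 8.33, 7.28, 7.33 and 7.74 on controls 1 to 4 and 7.64, 8.58, 8.41 and 8.24 on knockout-labelled arrays 1 to 4. Control 1 lay within the range of knockout-labelled arrays 2 to 4, and knockout-labelled array 1 within that of the other controls. The difference was 0.55 (SE 0.24), or 1.46-fold, with a 95% interval from 0.04 to 1.06 (limma adjusted p = 0.414; exact permutation p = 0.171). Array weights gave 0.74 (limma adjusted p = 0.0629), and the other 6 arrays alone gave 0.96 (SE 0.13).

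Inhbe read 11.79, 12.04, 12.21 and 12.16 on controls 1 to 4 and 12.13, 11.45, 12.11 and 11.43 on knockout-labelled arrays 1 to 4. Knockout-labelled arrays 2 and 4 were low, whereas arrays 1 and 3 of that group lay within the control range. The difference was -0.27 (SE 0.17; 95% interval from -0.63 to 0.10; limma adjusted p = 0.598; exact permutation p = 0.257). It was -0.15 without knockout-labelled array 4 and -0.16 without knockout-labelled array 2. The 6 arrays not numbered 1 gave -0.47 (SE 0.15; limma adjusted p = 0.0792). The groups did not separate even in that last fit, since knockout-labelled array 3 read 12.11.

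The adjacent gene Inhbc, which encodes the βC subunit and is likewise a hepatocyte product, had the smallest p of the 17 measured activin pathway genes. It read 12.03, 12.33, 12.35 and 12.33 on controls 1 to 4 and 12.50, 11.65, 11.51 and 11.37 on knockout-labelled arrays 1 to 4. Knockout-labelled array 1 held the highest of the 8 values and the other 3 of its group the lowest. The difference was -0.50 (SE 0.20; limma adjusted p = 0.377), and array weights brought it past the threshold (-0.68; limma adjusted p = 0.0314), as did leaving out knockout-labelled array 1 (-0.75; limma adjusted p = 0.00442). Leaving out control 1 alone did not (-0.58, limma adjusted p = 0.253). The 6 arrays not numbered 1 gave -0.82 (SE 0.08). Inhbb, which encodes the βB subunit, differed by 0.27 (SE 0.11; limma adjusted p = 0.400). Over the 17 genes 0 passed after adjustment, 2 were under 0.05 without it as higher and 1 as lower, and the median was -0.02. Fstl3, a second activin antagonist, differed by -0.14 (SE 0.10), and Acvr1c, which encodes the receptor ALK7, by -0.02 (SE 0.11).

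Lect2, a hepatocyte-secreted chemotactic protein, had a lower mean in the knockout-labelled group. It read 12.41, 12.65, 12.36 and 12.73 on controls 1 to 4 and 12.69, 12.07, 11.85 and 11.81 on knockout-labelled arrays 1 to 4. All controls lay above knockout-labelled arrays 2 to 4, and knockout-labelled array 1 lay near the top of the control range. Control 1 stayed with its own group here, unlike in Angptl4, Angptl8 and Fst. The difference was -0.43 (SE 0.17), or 1.35-fold lower, with a 95% interval from -0.80 to -0.07 (limma adjusted p = 0.361; exact permutation p = 0.114). Array weights called it (-0.61, limma adjusted p = 0.0300), as did leaving out knockout-labelled array 1 (-0.63, limma adjusted p = 0.00876). Leaving out control 1 alone did not (-0.48, limma adjusted p = 0.280). The 6 arrays not numbered 1 gave -0.67 (SE 0.10). In the gene table Lect2 overlaps Fbxl21, an F-box gene, which differed by -0.28 (SE 0.13; limma adjusted p = 0.437). Strand was not examined for either overlapping pair. Of the 12 measured receptors and partners of LECT2 and the fetuins, 0 passed and 0 were under 0.05 without adjustment, with a median of -0.02. Met, the hepatocyte growth factor receptor that LECT2 binds, differed by 0.25 (SE 0.12), and Tlr4 by 0.25 (SE 0.12).

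The fetuin genes Ahsg and Fetub, neighbours on chromosome 16, differed least. Ahsg read above the average of the hepatocyte markers (13.85 to 13.90 on controls). Whether values this high compress a difference was not tested. Fetuin-A inhibits insulin receptor signalling and calcification, and fetuin-B inhibits the protease ovastacin in fertilisation. Ahsg read 14.10, 14.08, 14.00 and 14.05 on controls 1 to 4 and 14.09, 14.14, 14.10 and 14.13 on knockout-labelled arrays 1 to 4. The groups met at the arrays numbered 1, and the difference was 0.06 (SE 0.05) with a 95% interval from -0.04 to 0.16 (limma adjusted p = 0.690; exact permutation p = 0.0571). Fetub read 13.13, 13.09, 13.01 and 13.01 on controls 1 to 4 and 13.17, 12.95, 12.91 and 12.94 on knockout-labelled arrays 1 to 4. Knockout-labelled array 1 was the highest of the 8, and the difference was -0.06 (SE 0.07) with a 95% interval from -0.21 to 0.09 (limma adjusted p = 0.801; exact permutation p = 0.343).

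**Figure D2:**
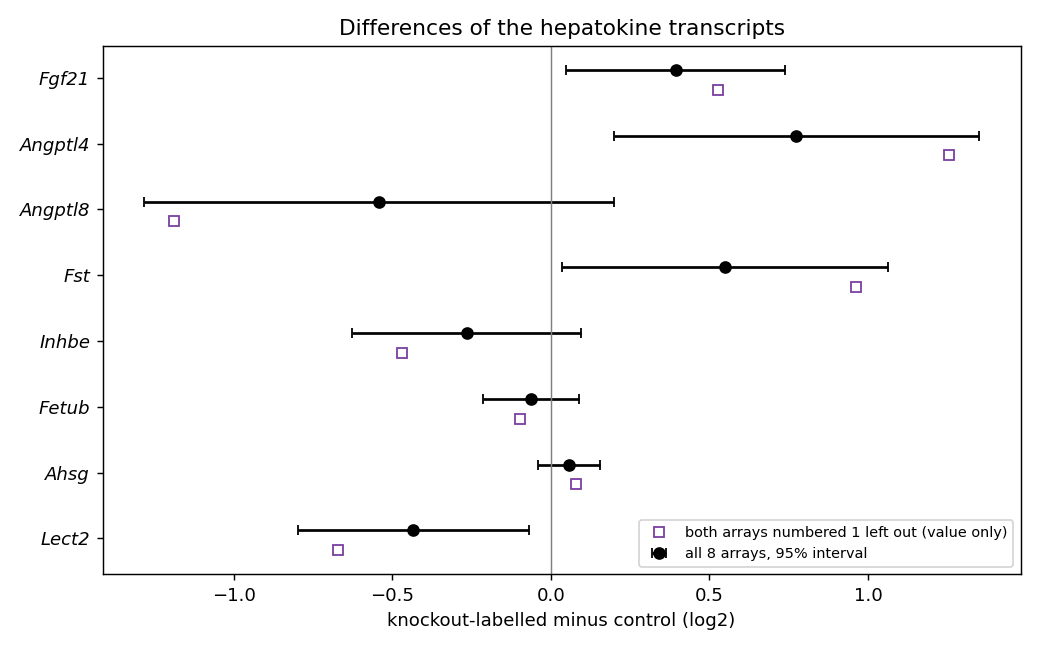
Knockout-labelled minus control difference (log2, horizontal axis) of each measured hepatokine transcript, with all 8 arrays (filled circle, 95% interval) and without both arrays numbered 1 (open square). The squares lie farther from 0 than the circles in all 8 genes, most in Angptl8 (-1.19 against -0.54) and Angptl4 (1.25 against 0.77).

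The place of the arrays numbered 1 differed between the hepatokines. In 4 of the 8 (Angptl4, Angptl8, Fst and Inhbe) control 1 lay nearer to the mean of knockout-labelled arrays 2 to 4 and knockout-labelled array 1 nearer to that of controls 2 to 4. That exchange held for 20.3% of all genes. In Fgf21, Lect2 and Fetub both arrays lay nearer to controls 2 to 4, and in Ahsg both lay nearer to knockout-labelled arrays 2 to 4. Without both arrays 4 of the 8 were past the threshold (Angptl4, Fst, Angptl8 and Lect2), where 7.24% of all genes were. Their limma adjusted p-values were 0.000154, 0.00139, 0.000115 and 0.00225. Because both arrays were chosen with their values known, neither these p-values nor the count beside that share is a test. With array weights 2 of the 8 passed (Angptl4 and Lect2), against 3.38% of all genes, and likewise 2 without knockout-labelled array 1, against 4.20%. Without control 1 none of the 8 passed, against 0.466% of all genes. The fits without 1 of these arrays were likewise picked with their values known, so those counts are not a test either. Why the arrays numbered 1 stand apart was not tested.

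**Figure D3:**
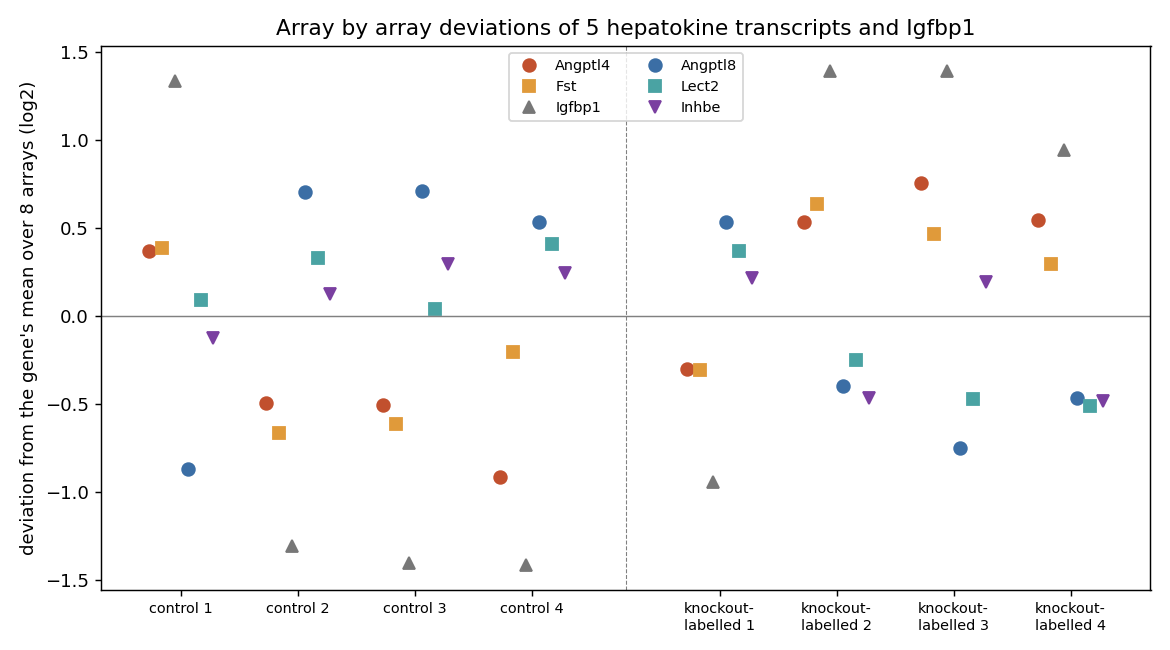
Deviation of each gene from its own mean over the 8 arrays (log2, vertical axis) for Angptl4, Fst, Angptl8, Lect2, Inhbe and the insulin-repressed Igfbp1, array by array. On control 1 Angptl4 and Fst lie above 0 with Igfbp1 and Angptl8 lies below, as on knockout-labelled arrays 2 to 4, while knockout-labelled array 1 has the opposite signs.

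The genes whose values ran most like a hepatokine's over the 8 arrays were taken from 922 named genes with an SD over 0.3 on the log2 scale. Because the arrays fall into sets, these Pearson correlations describe a shared split of arrays more than a graded relation, and they carry no test. For Fst the closest were Thbd, the thrombomodulin gene (r = 0.965), Igfbp1 (0.951) and Irs2, the insulin receptor substrate gene that insulin represses (0.946). For Angptl4 they were Slc25a11 (0.979), Fbxo21 (0.976) and Rps18 (0.973), and for Angptl8 Tiam2 (0.986), Zbtb7c (0.982) and Steap4 (0.976). For Inhbe they were Gpat3, a glycerol-phosphate acyltransferase gene (0.975), the activin βA gene Inhba (0.927) and Me1, the malic enzyme gene (0.924). For Lect2 they were Fam47e (0.980), Tcea3 (0.974) and Il18 (0.965), and for Fgf21 Ppfibp1 (0.968), Eid1 (0.963) and Myh10 (0.948). No closest gene was shared between 2 hepatokines.

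Of the known regulators of these hepatokines, Ppara differed by -0.12 (SE 0.08), Creb3l3 by -0.08 (SE 0.09), Atf4 by 0.06 (SE 0.09), Foxo1 by -0.11 (SE 0.10) and Srebf1 by -0.20 (SE 0.15), and none passed (the lowest limma adjusted p of these 5 was 0.633). The Srebf1 difference was -0.34 without control 1, and with both arrays numbered 1 left out it was -0.37 (limma adjusted p = 0.0953). Some genes, such as Cidec, Fgl1 and Igfbp1, belong to more than 1 list. Of 20 measured PPARα and CREB3L3 fasting genes, 16 had a higher mean, 6 were under 0.05 without adjustment, all higher, and the median was 0.13. Acadvl, a mitochondrial acyl-CoA dehydrogenase gene, differed by 0.56 (SE 0.13) and Acot1, an acyl-CoA thioesterase gene, by 0.65 (SE 0.18). In 4 of the 20, Acadvl among them, the groups did not overlap, as in 4.42% of all genes. The ATF4 and secreted-factor lists held 1 such gene each, and the other pathway lists 0. With array weights 5 of the 20 were called as higher and 0 as lower, where 1.27% and 2.11% of all genes were. The same fit called 2 of 21 FoxO and insulin-repressed genes and 2 of 18 lipogenic genes as higher, 1 gene each of the ATF4, glucocorticoid and secreted-factor lists as higher, and 1 each of the secreted-factor and activin lists as lower, and 0 genes of the receptor, lipoprotein lipase and LECT2 and fetuin partner lists. Cpt1a, the carnitine palmitoyltransferase of fasting, differed by 0.05 (SE 0.07), and Pdk4, which restrains pyruvate oxidation in fasting, by 0.14 (SE 0.11).

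Of 22 measured ATF4 targets and partners, 13 had a higher mean, 2 were under 0.05 without adjustment (Cebpb and Sesn2, both higher), and the median was 0.02. Cebpb, which encodes a C/EBP partner of ATF4, differed by 0.37 (SE 0.12), higher on every knockout-labelled array than on any control, and the leucine sensor gene Sesn2 by 0.33 (SE 0.15). Asns, the asparagine synthetase gene, differed by -0.37 (SE 0.36), and Trib3 by 0.24 (SE 0.19). Of the 3 hepatokines whose windows hold TGATGCAA, Fgf21 had a higher mean and Angptl8 and Inhbe lower ones.

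Of 21 FoxO genes and insulin-repressed genes, 15 had a higher mean, 3 were under 0.05 without adjustment as higher and 1 as lower, and the median was 0.08. Pck1, the gluconeogenic phosphoenolpyruvate carboxykinase gene, differed by 0.55 (SE 0.14) and G6pc, the glucose-6-phosphatase gene, by 0.56 (SE 0.17). Igfbp1 differed by 1.39 (SE 0.62; limma adjusted p = 0.435), and by 2.62 (SE 0.13) over the 6 arrays not numbered 1. Of 18 feeding and lipogenic genes, 11 had a higher mean, 2 were under 0.05 as higher and 1 as lower, and the median was 0.08. Fasn, the fatty acid synthase gene, differed by 0.35 (SE 0.14) and Mlxipl, the ChREBP gene, by -0.28 (SE 0.11). Of 13 glucocorticoid receptor targets 1 was under 0.05 as higher and 1 as lower, with a median of -0.08. These were Zbtb16 (0.63, SE 0.16) and the kinase gene Sgk1 (-0.29, SE 0.13).

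Among 22 other liver-secreted factors 3 were under 0.05 without adjustment as higher and 1 as lower, with a median of 0.05. Dpp4, the incretin-degrading peptidase, differed by -0.34 (SE 0.09), lower on every knockout-labelled array than on any control, and Igfbp2, an insulin-repressed IGF-binding protein gene, by 0.70 (SE 0.22). Fgl1, a further hepatokine gene, differed by 0.67 (SE 0.22). Igf1 differed by -0.07 (SE 0.06), the hepcidin gene Hamp by -0.04 (SE 0.07) and Selenop, the selenoprotein P gene, by 0.02 (SE 0.06). In none of the 10 pathway lists did a gene pass after adjustment over all genes with all arrays at equal weight.

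**Figure D4:**
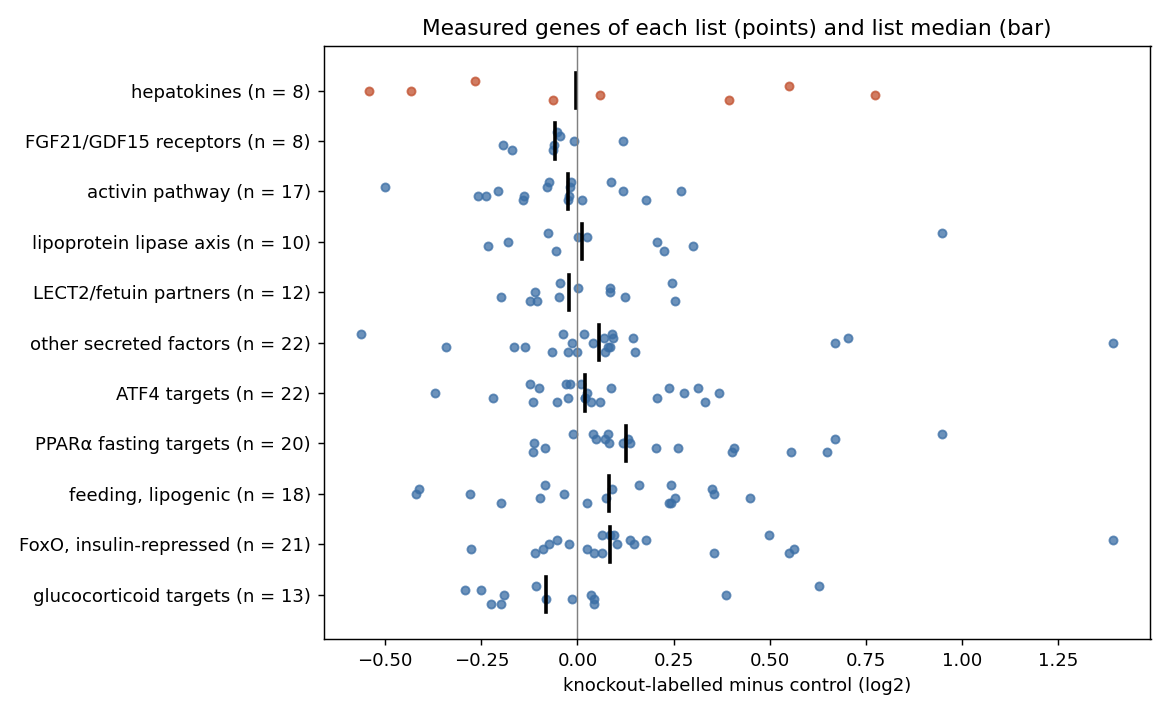
Knockout-labelled minus control difference (log2, horizontal axis) of every measured gene of the hepatokine set and of 10 pathway lists, with the list median as a bar. The hepatokines spread from -0.54 to 0.77 about a median near 0, and the median is largest in the PPARα fasting list (0.13).

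In bulk liver, fewer cells of a type and less RNA per cell cannot be told apart. The hepatocyte markers averaged 13.85 to 13.90 on controls and 13.86 to 13.89 on the knockout-labelled arrays. Angptl4 is also made by adipocytes and endothelial cells. The 5 measured adipocyte markers averaged 5.98 to 6.10 and 5.95 to 6.13, and the 10 endothelial markers 10.38 to 10.66 and 10.41 to 10.68. Kupffer cell markers varied more, from 9.04 to 9.83 and from 9.25 to 10.14. Of 66 measured markers of 9 cell types 0 passed after adjustment, and 1 was under 0.05 without it as higher and 3 as lower. All 7 measured lymphocyte markers had a lower mean, with a median of -0.13. Array weights called 1 of 6 cholangiocyte markers as lower, where 2.11% of all genes were. Without both arrays numbered 1 the calls were 2 cholangiocyte markers and 1 of 2 red cell markers, all lower, as were 988 of 19938 genes. With all arrays at equal weight, Epcam differed by -0.46, Sox9 by -0.44 and Tspan8 by -0.03, whereas Krt19 (0.02), Krt7 (0.11) and Cldn7 (0.01) were higher. Of the red cell markers Alas2 differed by -0.36 and Slc4a1 by 0.01. With all arrays, the genes of each list thus did not all go the same way, though only 2 red cell markers were measured. In the average of both lists the array numbered 1 of each group lay outside the range of the other 3. Cholangiocyte markers averaged 6.81 on control 1 and 6.95 to 7.11 on the other controls, and 7.06 on knockout-labelled array 1 and 6.74 to 6.79 on the others of its group. Red cell markers averaged 8.59 on control 1 and 8.90 to 8.99 on the other controls, and 8.96 on knockout-labelled array 1 and 8.55 to 8.65 on the others of its group. The part of other cells in the hepatokine values was not tested.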

How the data were processed

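The authors' deposited log2 values, 1 per probe set and array for 35556 probe sets, were used. Tools named in the submitters' processing notes are RMA, Partek and Affymetrix Expression Console, with no version, and the log2 base was read from the range of the values. Scanner intensities were not used here, so array quality was not examined from them. The number of arrays limits the precision. Probe sets were named by the platform annotation, updated by Entrez identifier against a RefSeq gene table (GRCm38.p6; 21698 of 21789 single-symbol probe sets matched). A gene was represented by its brightest probe set. Each of the 23410 probe sets with a symbol was fitted by lmFit and by eBayes with a mean-variance trend (limma 3.58.1, R 4.3.3; two-sided, equal weights). P-values were adjusted by Benjamini-Hochberg over these 23410, and counts run over the 19938 genes of single-symbol probe sets. The fit was tested on simulated data. The exact permutation test used all 70 splits.

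The members and gene lists were chosen with earlier results of these data known. Named genes are the members, the pair with the smallest p in each pathway list, fixed regulators and closest correlates. Klb, Fgfr4, Fstl3, Acvr1c, Cpt1a, Pdk4, Asns, Trib3, Fgl1, Igf1, Hamp, Selenop, Dock6 and Fbxl21 were named after their values were seen. So were the cholangiocyte and red cell markers given by name. Each array was taken as 1 mouse, since the design gives 4 mice per group, and same-numbered arrays did not deviate together (correlations -0.0790, -0.130, -0.0332 and 0.0784), so numbers were not treated as pairs. Arrays correlated at 0.987 to 0.994 and shared at most 18 identical values. Promoter sequences are RefSeq's on GRCm38.p6. Alternatives were array weights, each array left out, both arrays numbered 1 left out, a replicate block, no trend, other normalisations, other probe set choices, a filter on dim probe sets and a plain test.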

Additional observations from a re-analysis of the deposited data

Results flagged for a closer look

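Over 35 genes named here by rule and 2 groups each, 70 groups of 4 arrays were checked for a value far from the other 3, by Dixon's ratio of the gap to the range, and 6 exceeded its 95% critical value; chance flags about 1 in 20 groups. Control 1 was such a value in 4 of them. It read 10.575 in Angptl8, below the other controls, 12.03 in Inhbc and 11.25 in Mlxipl, both below, and 10.04 in Igfbp1, above. Knockout-labelled array 1 was high in Fetub, at 13.17, and knockout-labelled array 3 was high in Fgf21, at 7.50.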

How the results depend on the processing

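The direction of all 8 hepatokine differences was the same in every alternative run, and Fgf21, Inhbe, Fetub and Ahsg passed in none. Array weights called 673 genes and 2 hepatokines, Angptl4 (0.95) and Lect2 (-0.61). The lowest weight was that of knockout-labelled array 1 (0.47) and the highest that of control 2 (2.32). Control 1 (0.82) was weighted much like control 3 (0.83). Without both arrays numbered 1, 1443 genes and 4 hepatokines were called: Angptl4 at 1.25, Lect2 at -0.67, Angptl8 at -1.19 and Fst at 0.96. Those calls are not a test, since the 2 arrays were left out with their values known. With single arrays left out the count of genes ran from 0 to 838 (93 without control 1, 838 without knockout-labelled array 1, 0 otherwise) and that of hepatokines from 0 to 2. Over these fits Angptl4 ran from 0.60 to 1.02, Lect2 from -0.63 to -0.34, Angptl8 from -0.92 to -0.38, Fst from 0.42 to 0.77, Fgf21 from 0.20 to 0.48, Inhbe from -0.38 to -0.15, Fetub from -0.12 to -0.036 and Ahsg from 0.039 to 0.072. The limits are the 4 arrays per group and the arrays numbered 1, and the cause of their place was not tested. With the replicate block 0 genes and 0 hepatokines were called, and Angptl4 stayed at 0.77 (limma adjusted p = 0.417). The other normalisations, probe set choices, no trend and the plain test also called 0. Fgf21 has no value under the filter on dim probe sets, which removes it.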
